A study of Homo sapiens with 12 samples.

Results

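The high mobility group genes HMGA1, HMGA2, HMGB1, HMGB2, HMGB3, HMGN1, HMGN2, HMGN3, HMGN4 and HMGN5 were chosen by name, 10 genes of the 57815 listed in each library. They were measured by RNA sequencing in 3 lines of human non-small cell lung cancer, A549 and H2023 (labelled lung adenocarcinoma) and H460 (labelled large cell lung carcinoma), all labelled positive for a mutation of KEAP1, a protein that targets the transcription factor NRF2 for degradation. Every line was treated with control siRNA or NRF2 siRNA for 48 h, which gave 6 groups of 2 libraries and 12 libraries in all. The NRF2 siRNA libraries of a line carried 1 siRNA each, siRNA 28 for library 0 and siRNA 30 for library 1, so siRNA and library number cannot be told apart and the spread of that group holds the difference between siRNAs. A549 was grown in high-glucose medium and its libraries were made after removal of ribosomal RNA, whereas H2023 and H460 were grown in low-glucose medium and their libraries were made from polyA RNA, so line, medium and library type cannot be told apart where A549 is set beside another line. Each group rests on 1 line, and the study's methods call the control libraries of a line biological duplicates and count both NRF2 siRNAs as such. The labels name no separate cultures, so the tests measure the spread between these libraries.

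High mobility group proteins are abundant chromatin proteins that bind DNA or nucleosomes with little sequence specificity. HMGA proteins use AT-hooks to bind the minor groove of AT-rich DNA, and are high in embryonic and many cancer cells. HMGB proteins bend DNA with HMG boxes, and HMGB1 is also known as a signal released from damaged cells. HMGN proteins bind nucleosomes and oppose compaction by the linker histone H1.

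Levels are given as FPKM, which count sequenced fragments relative to transcript length and library size. NFE2L2, the gene of NRF2, was at 38.2 and 30.9 FPKM in the A549 control libraries and at 5.31 and 7.84 FPKM with siRNA 28 and 30. It was at 120 and 119 FPKM against 7.74 and 6.80 FPKM in H2023, and at 144 and 99.5 FPKM against 6.54 and 12.2 FPKM in H460. The NRF2 siRNA libraries thus lay below the control libraries in each line, and NFE2L2 passed the test in each (adjusted p = 0.0178, 0.00529 and 0.0111). The steps between low FPKM values put the depth of the libraries of a line at 0.926 to 1.07 times that of its first control library, and the number of fragments itself is unknown. The mitochondrial transcripts held 8.56% and 13.1% of the summed FPKM in the H460 control libraries and 20.8% and 25.96% in the H460 NRF2 siRNA libraries. The epithelial keratins KRT8 and KRT18 were at 298 FPKM or more in each library, but CDH1 and EPCAM, which define epithelial cells, stood at no more than 1.19 FPKM in H460. Of 11 markers of other cell types, between 1 and 3 reached the level for testing in a line, and PTPRC, CD3E, CDH5 and VWF were under 1 FPKM in every library. Those tested were CD68 in every line, ALB and COL1A1 in H2023, and COL1A1 and PDGFRB in H460. ALB stood at 21.8 and 3.71 FPKM in the H2023 control libraries, at 109 FPKM with siRNA 28 and at 6.49 FPKM with siRNA 30, so the siRNA 28 library was the highest. CD68 was at 14.04 and 15.59 FPKM in the A549 control libraries and at 26.6 and 30.7 FPKM with NRF2 siRNA, which did not pass (adjusted p = 0.0975). In H460 CD68 lay the other way, at 36.6 and 39.2 FPKM against 16.5 and 29.2 FPKM with NRF2 siRNA. That difference did not pass either (adjusted p = 0.141), and the H2023 groups of CD68 overlapped. The part of these markers in the values of the high mobility group genes was not tested.

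In the control libraries HMGA1 and HMGB1 were the most abundant members in every line. In H460 the mean control level was 567 FPKM for HMGA1, 403 FPKM for HMGB1, 181 FPKM for HMGN1 and 180 FPKM for HMGN2. Then came HMGB3 at 86.5, HMGB2 at 79.4, HMGN3 at 77.2, HMGN5 at 57.6 and HMGN4 at 24.4 FPKM, and HMGA2 was listed at 0. The libraries of HMGN1 and HMGN2, of HMGB3 and HMGB2, and of HMGB2 and HMGN3 overlapped, so these neighbours in the order did not differ beyond their spread. In H2023 the order was HMGA1 at 553, HMGB1 at 276, HMGN2 at 241, HMGN1 at 240, HMGB2 at 101, HMGN3 at 75.2, HMGB3 at 69.1, HMGN5 at 10.8, HMGN4 at 9.26 and HMGA2 at 1.18 FPKM, with overlap of HMGN2 with HMGN1 and of HMGN5 with HMGN4. In A549 the order was HMGB1 at 308, HMGA1 at 273, HMGN2 at 137, HMGN3 and HMGN1 at 130, HMGB3 at 107, HMGB2 at 79.1, HMGN4 at 28.9, HMGA2 at 6.44 and HMGN5 at 1.41 FPKM. The A549 ranges of HMGB1 and HMGA1 overlapped, as did those of HMGN2, HMGN3 and HMGN1 and those of HMGN3 and HMGB3. The members at the bottom of the order therefore differed between the lines, HMGN5 in A549 and HMGA2 in H2023 and H460.

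**Figure D1:**
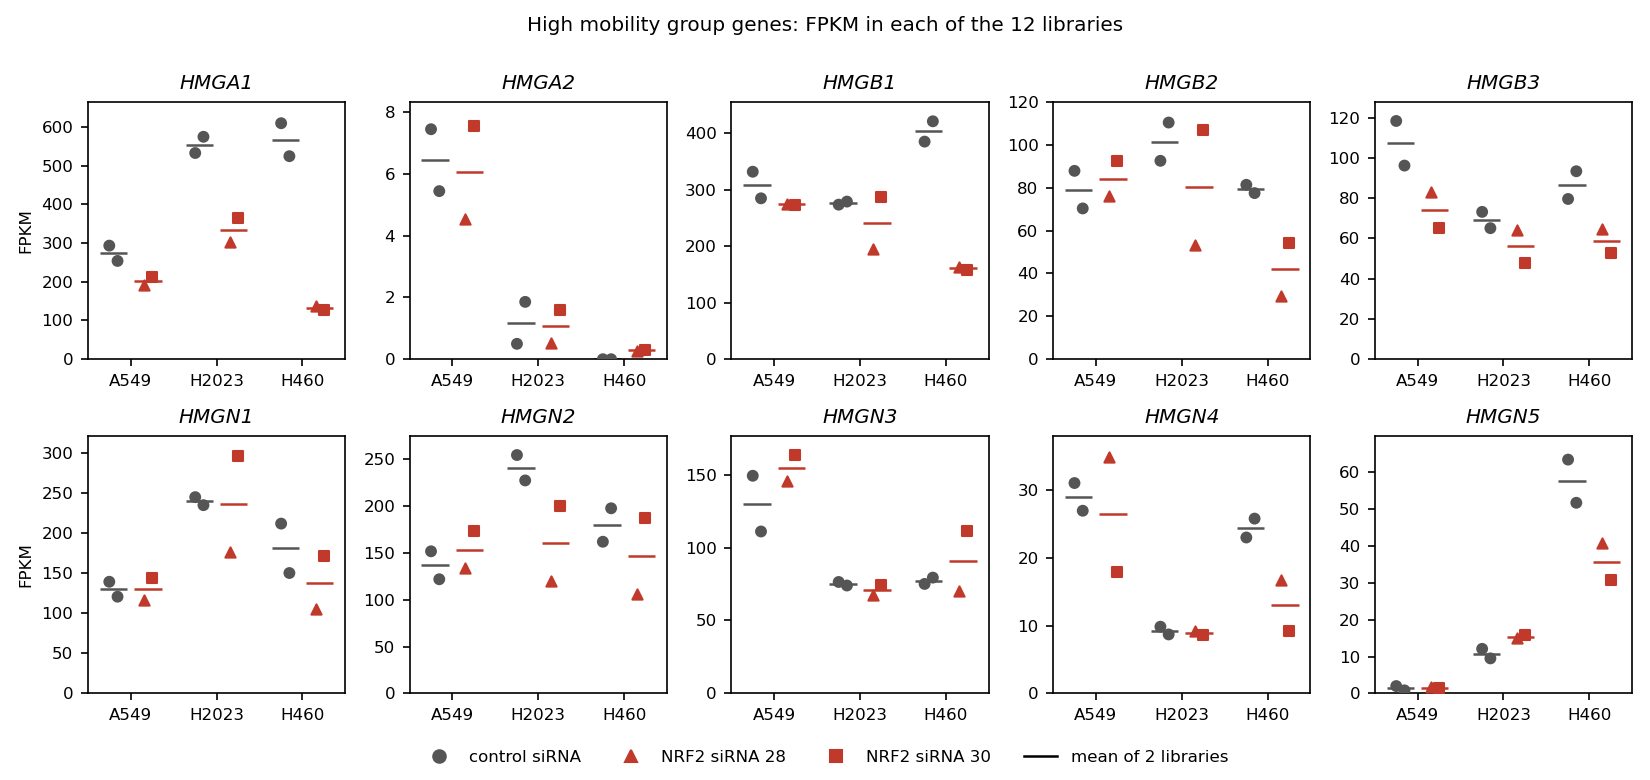
FPKM of the 10 high mobility group genes in each of the 12 libraries, 1 panel per gene with its own axis from 0, with circles for control siRNA, triangles for NRF2 siRNA 28, squares for NRF2 siRNA 30 and lines for the mean of 2 libraries. HMGA1 and HMGB3 sit below both control libraries with both NRF2 siRNAs in all 3 lines, and HMGA1 falls to 138 and 127 FPKM in H460.

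The first question was which members changed with NRF2 siRNA in each line. In H460 HMGA1 and HMGB1 fell, 2 of the 9 members tested, and no member rose. In A549 and in H2023 no member of 10 passed the threshold in either direction. A gene was tested where it reached 1 FPKM in at least 2 libraries of the line, and the test was the moderated test of limma on log2(FPKM + 1) with the adjusted p taken over all genes tested. Among all genes tested, 6.86% were called lower and 7.12% higher in H460, 0.554% lower and 0.122% higher in A549, and 0.583% lower and 0.327% higher in H2023. At an unadjusted p under 0.05, HMGA1 and HMGB3 were lower in A549 and HMGA1 in H2023, where genes at that p in either direction made up 13.3% and 16.9% of all genes. The median log2 fold change of the members was -0.68 in H460, -0.05 in A549 and -0.15 in H2023, beside -0.01, 0.02 and 0.02 for all genes. For all genes with a mean above 10 FPKM it was -0.14, -0.01 and -0.01. Leaving the mitochondrial transcripts out of the scale raised the median of all genes in H460 by 0.20, to 0.19.

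HMGA1, at chr6:34204650-34214008 on the plus strand of GRCh37, encodes the AT-hook protein HMGA1. In H460 it was at 609 and 524 FPKM in the control libraries and at 138 and 127 FPKM with siRNA 28 and 30. The groups did not overlap, and the means were 567 ± 60.2 and 132 ± 7.79 FPKM (SD, n = 2). The log2 fold change was -2.09 (SE 0.23, 95% interval -2.63 to -1.54, adjusted p = 0.0124). In H2023 the control libraries held 532 and 574 FPKM and the NRF2 siRNA libraries 304 and 365 FPKM. This difference of -0.73 on the log2 scale (interval -1.16 to -0.30) did not pass the threshold (adjusted p = 0.144), although the groups did not overlap. It passed in 3 of 13 alternatives, among them 1 fit of all 12 libraries (adjusted p = 0.0295) and the fit without the siRNA 30 library (-0.86, adjusted p = 0.0327), in which 305 and 648 genes were called lower in all instead of 82. In A549 the values were 293 and 254 FPKM against 191 and 213 FPKM, again without overlap, with a log2 difference of -0.43 (interval -0.81 to -0.06, adjusted p = 0.321). After NRF2 siRNA HMGA1 was no longer the first member in H460, since HMGB1 at 163 and 159 FPKM stood above it in both libraries. With mitochondrial transcripts left out of the scale, the H460 fold change of HMGA1 was -1.87 and still past the threshold (adjusted p = 0.0117). Without control library 0 or control library 1 of H460 the fold change was -1.98 or -2.20, and the adjusted p was 0.124 or 0.0908, in fits that called 0 or 4 genes lower in all instead of 922. As these are bulk libraries, a lower level in every cell and a smaller share of cells with the transcript cannot be told apart. By its own test of these same libraries the study called HMGA1 lower in all 3 lines and took it as an effector candidate. Whether HMGA1 passed in A549 and H2023 thus depended on the processing or test. Its direction here is not independent evidence.

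The promoter of HMGA1 is shown because it was the member with the greatest fold change and held the only match to an antioxidant response element core, the motif of NRF2, among the members. RefSeq promoter windows of 300 bases, 250 before and 50 after a start on GRCh37, were listed for 8 of the 10 members (all but HMGA2 and HMGB2). The core was searched as TGACNNNGC on both strands and was found in 13.3% of 35116 windows. Of the 8 members 1 held a match, no more than that share of windows would give. In HMGA1 it read TGACACGGC on the plus strand from position -48, in 1 of its 2 listed windows. A CCAAT box (CCAAT on either strand, in 34.6% of windows) was matched in 6 of the 8 members, HMGA1, HMGB1, HMGB3, HMGN1, HMGN2 and HMGN3, called or not. The share counts single windows, while a member held up to 3, so it cannot be set against the count of members. In the HMGA1 window shown, its match began at position 38, after the start. Of the 2 listed windows of HMGB3, the first had 3 matches and the second 0. The first is given beside that of HMGA1, since HMGB3 was the other member below control in every line. Its bases lie within the annotated span of HMGB3, so the start is an inner one. In HMGB1, 1 of the 3 windows also had 3 matches. The E-box CACGTG, found in 7.26% of windows, was matched among the members in HMGN2 alone. The bases before the start are shown 5′ to 3′, and capitals mark the TGACNNNGC match in HMGA1 (chr6:34204400-34204649, plus strand, GRCh37) and the CCAAT matches in HMGB3 (chrX:150151558-150151807, plus strand, GRCh37).
HMGA1: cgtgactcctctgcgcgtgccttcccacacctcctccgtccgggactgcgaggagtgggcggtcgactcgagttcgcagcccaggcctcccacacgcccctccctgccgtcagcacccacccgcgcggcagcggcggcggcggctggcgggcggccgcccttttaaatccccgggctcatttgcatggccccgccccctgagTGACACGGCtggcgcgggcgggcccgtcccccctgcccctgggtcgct
HMGB3: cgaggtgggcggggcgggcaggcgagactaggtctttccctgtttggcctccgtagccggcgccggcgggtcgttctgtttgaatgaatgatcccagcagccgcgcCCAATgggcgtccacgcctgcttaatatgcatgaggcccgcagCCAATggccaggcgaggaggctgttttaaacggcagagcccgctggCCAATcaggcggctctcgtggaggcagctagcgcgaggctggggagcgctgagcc
A match is a stretch of these letters and not a measured binding site.

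HMGA2, at chr12:66218240-66360071 on the plus strand, encodes the second AT-hook protein. In A549 it was at 7.44 and 5.44 FPKM in the control libraries and at 4.53 and 7.56 FPKM with siRNA 28 and 30, so the groups overlapped (log2 difference -0.10, interval -0.76 to 0.56). In H2023 it was at 0.498 and 1.86 FPKM against 0.512 and 1.61 FPKM. In H460 it was listed at 0 in both control libraries and at 0.258 and 0.311 FPKM with NRF2 siRNA, under the level for testing. Fewer than 8 FPKM in any library thus set HMGA2 far under HMGA1 in every line.

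HMGB1, at chr13:31030841-31191734 on the minus strand, was the other member that fell in H460. It was at 385 and 421 FPKM in the H460 control libraries and at 163 and 159 FPKM with siRNA 28 and 30. The NRF2 siRNA libraries lay close together and far below the control libraries. The log2 fold change was -1.32 (SE 0.22, interval -1.84 to -0.80, adjusted p = 0.0215), and -1.10 with mitochondrial transcripts left out of the scale (adjusted p = 0.0296). Without control library 0 or 1 of H460 it was -1.38 or -1.26, with an adjusted p of 0.187 or 0.163. In A549 HMGB1 was at 332 and 285 FPKM against 275 and 274 FPKM, a log2 difference of -0.16 (interval -0.53 to 0.20). In H2023 it was at 274 and 279 FPKM against 195 FPKM with siRNA 28 and 287 FPKM with siRNA 30, so 1 siRNA library lay below and the other above both control libraries. Of the 80-base windows of its annotated transcripts, 80 being the read length, 7.81% occur exactly in another gene of the family, mostly in the pseudogene HMGB1P5, which stood between 0.684 and 7.93 FPKM.

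HMGB2, at chr4:174252527-174255583 on the minus strand, is the HMG-box protein known for its rise in dividing cells. In H460 it was at 81.4 and 77.5 FPKM in the control libraries and at 29.6 FPKM with siRNA 28 and 54.2 FPKM with siRNA 30. Both lay below control, but the siRNA libraries differed from each other more than the control libraries did, and the log2 difference of -0.97 (interval -1.72 to -0.21) had an adjusted p of 0.0851. In H2023 it was at 92.6 and 110 FPKM against 53.4 FPKM with siRNA 28 and 107 FPKM with siRNA 30. In A549 it was at 87.9 and 70.3 FPKM against 76.0 and 92.5 FPKM. The groups overlapped in H2023 and A549.

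HMGB3, at chrX:150148982-150159244 on the plus strand, encodes the HMG-box protein best known from blood stem cells and tumours. It was at 118 and 96.2 FPKM in the A549 control libraries and at 83.2 and 65.0 FPKM with siRNA 28 and 30. In H2023 it was at 73.2 and 65.1 FPKM against 64.3 and 47.7 FPKM. The H460 values were 79.6 and 93.3 FPKM against 64.8 and 52.8 FPKM. In every line both NRF2 siRNA libraries lay below both control libraries, and siRNA 30 gave the lower value. The log2 difference was -0.53 in A549 (adjusted p = 0.321), -0.31 in H2023 (adjusted p = 0.491) and -0.55 in H460 (adjusted p = 0.146). Only HMGA1 and HMGB3 of the members were below control without overlap in all 3 lines, which held for 7.2% of all genes tested in every line.

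**Figure D2:**
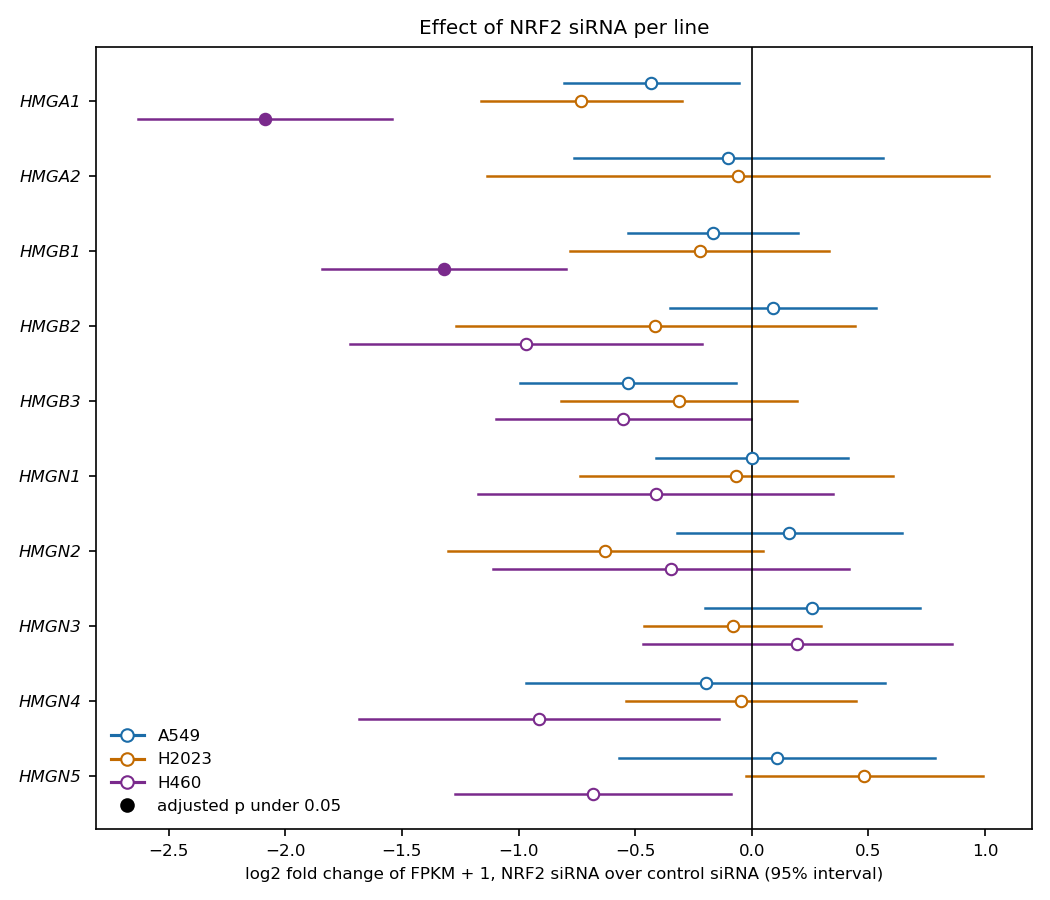
Log2 fold change of FPKM + 1 with its 95% interval, NRF2 siRNA over control siRNA, for each high mobility group gene tested in A549, H2023 and H460, with filled circles for an adjusted p under 0.05. The only filled circles are HMGA1 at -2.09 and HMGB1 at -1.32 in H460, and HMGN5 lies at 0.48 in H2023 and at -0.68 in H460.

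Among the HMGN genes no member passed the threshold in any line. HMGN1, at chr21:40714241-40721573 on the minus strand, was at 245 and 235 FPKM in the H2023 control libraries, 177 FPKM with siRNA 28 and 296 FPKM with siRNA 30. In H460 it was at 212 and 150 FPKM against 105 and 171 FPKM, and in A549 at 139 and 121 FPKM against 117 and 144 FPKM. The groups overlapped in all 3 lines, and siRNA 28 gave the lower value in each. HMGN2, at chr1:26798931-26803133 on the plus strand, was at 254 and 227 FPKM in the H2023 control libraries, 120 FPKM with siRNA 28 and 200 FPKM with siRNA 30. Its log2 difference there was -0.63 (interval -1.30 to 0.05, adjusted p = 0.322). HMGN2 was at 162 and 198 FPKM against 106 and 187 FPKM in H460, and at 152 and 122 FPKM against 133 and 174 FPKM in A549. The H2023 groups of HMGN2 did not overlap, whereas those of H460 and A549 did.

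HMGN3, at chr6:79910962-79944406 on the minus strand, had log2 differences of 0.26 (A549), -0.08 (H2023) and 0.19 (H460), with overlap in each line and levels from 67.7 to 163 FPKM over the 12 libraries. HMGN4, at chr6:26538594-26547161 on the plus strand, is a close relative of HMGN2 that arose by retrotransposition. It was at 23.0 and 25.8 FPKM in the H460 control libraries, 16.8 FPKM with siRNA 28 and 9.18 FPKM with siRNA 30, a log2 difference of -0.91 (interval -1.68 to -0.14, adjusted p = 0.101). In A549 HMGN4 was at 31.0 and 26.9 FPKM against 34.8 FPKM with siRNA 28 and 17.9 FPKM with siRNA 30, on either side of the control libraries. In H2023 its 4 values ran from 8.60 to 9.83 FPKM. HMGN5, at chrX:80369198-80457412 on the minus strand, is the longest HMGN protein and has an extended acidic tail. It was at 63.4 and 51.7 FPKM in the H460 control libraries against 40.7 and 30.7 FPKM, and at 12.1 and 9.50 FPKM in H2023 against 15.0 and 15.7 FPKM. HMGN5 therefore lay below control in H460 and above it in H2023, without overlap in either, but neither difference passed the threshold (-0.68, adjusted p = 0.110, and 0.48, adjusted p = 0.315). In A549 HMGN5 was at 1.995 and 0.835 FPKM against 1.67 and 1.39 FPKM.

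Counted without a test among the members that reached the level for testing, 3 members in A549, 3 in H2023 and 6 of 9 tested in H460 had both NRF2 siRNA libraries below both control libraries, and 1 member, HMGN5 in H2023, had both above. Below control were HMGA1, HMGB1 and HMGB3 in A549, HMGA1, HMGB3 and HMGN2 in H2023, and HMGA1, HMGB1, HMGB2, HMGB3, HMGN4 and HMGN5 in H460. Among all genes tested, 20.5%, 22% and 31.6% lay below control in this way in A549, H2023 and H460, and 25.2%, 27% and 31.1% lay above it.

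Many processed pseudogenes resemble these genes, and how reads that fit both were assigned in these FPKM is not known. The annotation named 47 pseudogenes of HMGB1, 38 of HMGN2, 32 of HMGN1, 29 of HMGB3, 8 of HMGA1 and 1 each of HMGB2 and HMGN3. The summed FPKM of the HMGN2 pseudogenes was 16.1% to 35.0% of the FPKM of HMGN2 itself, that of HMGN1 3.25% to 12.2%, that of HMGB1 3.13% to 6.68%, that of HMGA1 1.22% to 4.88% and that of HMGB3 0.530% to 2.60%. Almost all of the HMGN2 sum was HMGN2P5, at chr15:30022917-30023189 on the plus strand, which stood between 21.2 and 47.7 FPKM. By the mean over all 12 libraries the first pseudogene of HMGN1 was HMGN1P38, with 1.49 to 9.58 FPKM, although HMGN1P18 or HMGN1P3 stood above it in 3 of the 4 H460 libraries. For HMGA1 it was HMGA1P8, with 1.48 to 6.63 FPKM, although HMGA1P2 stood above it in 3 of the 4 A549 libraries and HMGA1P3 in the siRNA 30 library of H460. HMGN2P5 is identical to the HMGN2 coding sequence at 269 of 270 bases (99.6%), while HMGN4 is identical at 233 (86.3%). The first 120 bases of the coding sequence or its copy, from the GENCODE annotation on GRCh37, are shown because they set HMGN2P5 and HMGN4 apart in their likeness to HMGN2, with capitals where a base differs from HMGN2.
HMGN2: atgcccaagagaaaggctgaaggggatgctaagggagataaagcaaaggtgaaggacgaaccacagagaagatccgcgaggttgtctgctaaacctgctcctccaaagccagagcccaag
HMGN2P5: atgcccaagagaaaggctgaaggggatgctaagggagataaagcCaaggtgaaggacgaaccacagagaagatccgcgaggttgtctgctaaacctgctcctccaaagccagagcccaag
HMGN4: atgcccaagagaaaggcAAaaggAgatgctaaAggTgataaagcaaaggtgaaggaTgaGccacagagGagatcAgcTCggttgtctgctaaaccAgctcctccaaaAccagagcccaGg
HMGN2P5 differs from HMGN2 at 1 base in this stretch and HMGN4 at 14. Of the 80-base windows of HMGN2 transcripts, 4.68% occur exactly in another family gene, most of them in HMGN2P5, and of those of HMGN1, HMGB3 and HMGA1 1.03%, 0.836% and 0.455%. HMGA2, HMGB2, HMGN3, HMGN4 and HMGN5 share none. The windows were pooled over all annotated transcripts, and 149 of the 3656 windows of HMGN2 occur in HMGN2P5. As HMGN2P5 is a copy of the coding sequence, the share is greater within that sequence, where it was not counted. With the pseudogenes added to the parent gene, the H460 fold changes were -2.06 for HMGA1 (adjusted p = 0.0127) and -1.32 for HMGB1 (adjusted p = 0.0215).

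The next question was whether a member changed on average over the lines, and whether the effect differed between them. Averaged over the lines, with a line term in 1 fit of the 12 libraries, HMGA1, HMGB1 and HMGB3 fell, 3 of 9 members tested, and none rose, where 14.5% of all genes were called lower and 15.2% higher. The average log2 fold change was -1.08 for HMGA1 (interval -1.29 to -0.87, adjusted p = 5.91e-05), -0.57 for HMGB1 (interval -0.81 to -0.33, adjusted p = 0.00372) and -0.46 for HMGB3 (interval -0.73 to -0.20, adjusted p = 0.0158). HMGB2 and HMGN4 had averages of -0.43 (adjusted p = 0.116) and -0.39 (adjusted p = 0.130). Without the H460 libraries, an alternative chosen after the data were seen, the average of HMGA1 was -0.58 (adjusted p = 0.0191), that of HMGB1 -0.19 (adjusted p = 0.423) and that of HMGB3 -0.42 (adjusted p = 0.111). Without control library 0 of A549 the average of HMGB3 was -0.42 (adjusted p = 0.0520). Without the A549 libraries, also chosen after the data were seen, it was -0.43 (adjusted p = 0.0728). With no filter on low values its adjusted p was 0.0546, and with mitochondrial transcripts left out it was -0.36 and past the threshold (adjusted p = 0.0324). Of the epithelial markers, KRT7 (0.51, adjusted p = 0.0134), KRT8 (0.78, adjusted p = 0.00638) and KRT18 (0.60, adjusted p = 0.00556) rose on average, 3 of 5 tested, and their part in the averages of the high mobility group genes was not tested. Of the proliferation genes 15 of 20 were called lower on average, with a median of -0.64, and their part was not tested either. The median over the members was -0.39, beside -0.01 for all genes and -0.06 for those with a mean above 10 FPKM.

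HMGA1 was the member whose effect differed between the lines (adjusted p = 0.0214), where 2.51% of all genes did. Its fold change in H460 was lower than in A549 by a log2 difference of -1.66 (interval -2.17 to -1.14, adjusted p = 0.0164) and lower than in H2023 by -1.36 (interval -1.87 to -0.84, adjusted p = 0.0216), where 1.71% and 2.02% of all genes were lower in this way. The fold changes of H2023 and A549 differed by -0.30 (interval -0.81 to 0.22, adjusted p = 0.9997). The effect on HMGB1 was lower in H460 than in H2023 by -1.10 (interval -1.68 to -0.51), which did not pass (adjusted p = 0.0516). It was lower in H460 than in A549 by -1.16 (adjusted p = 0.0467), with a test over all lines that did not pass (adjusted p = 0.0580). This HMGB1 difference passed in 7 of 21 alternatives, and with mitochondrial transcripts left out it was -0.94 (adjusted p = 0.0998). The opposite positions of HMGN5 in H460 and H2023 gave a difference of -1.16 (interval -1.96 to -0.37) with an adjusted p of 0.0936. Leaving out any A549 library, either H2023 control library or control library 0 of H460 put the adjusted p of HMGA1 over all lines between 0.0513 and 0.0903, in fits that called 3 to 41 genes in all instead of 290. The HMGA1 differences themselves stayed between -1.76 and -1.55 for H460 against A549 and between -1.49 and -1.22 for H460 against H2023 when 1 library was left out. Of the 12 fits that each left out 1 library, 7 kept the HMGA1 difference between H460 and A549 past the threshold, 8 kept that between H460 and H2023, and 3 kept the HMGB1 difference between H460 and A549.

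**Figure D3:**
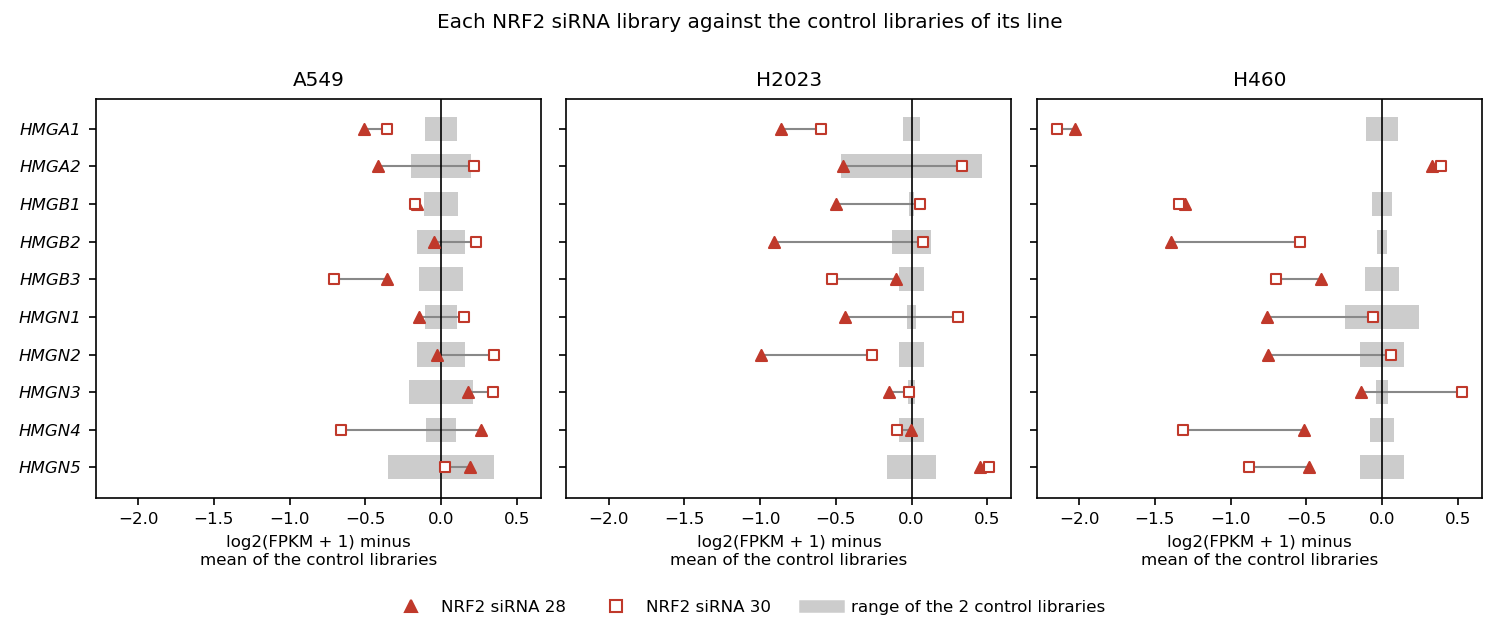
Log2(FPKM + 1) of each NRF2 siRNA library minus the mean of the control libraries of its line, with triangles for siRNA 28, squares for siRNA 30 and grey bars for the range of the 2 control libraries. Both symbols of HMGA1 lie left of the grey bar in every line, while HMGB2, HMGN1 and HMGN2 lie further left with siRNA 28 and HMGB3 and HMGN4 with siRNA 30.

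A further question was whether the siRNAs gave the same levels. In the fit of the 6 NRF2 siRNA libraries with a line term no member passed the threshold between siRNA 28 and siRNA 30, and by limma 0% of 15716 genes did in either direction, while 2853 genes (18.2%) had an unadjusted p under 0.05. With genes kept only at 1 FPKM or more in every library 34 genes were called lower and 103 higher, and without 1 of the A549 libraries 89 or 93 genes were called, with no member among them. In 1 fit of all 12 libraries, an alternative chosen after the data were seen, HMGB2 (adjusted p = 0.0325) and HMGN2 (adjusted p = 0.0315) were called lower with siRNA 28, where 349 of the 15716 genes were called lower and 698 higher. HMGB2, HMGN1 and HMGN2 were lower with siRNA 28 in each line, by -0.71 (interval -1.13 to -0.28), -0.58 (interval -0.93 to -0.23) and -0.64 (interval -0.99 to -0.30) on the log2 scale, with adjusted p of 0.163, 0.164 and 0.150. HMGB3 and HMGN4 were higher with siRNA 28 in each line, by 0.36 (interval 0.07 to 0.64) and 0.61 (interval 0.10 to 1.11), with adjusted p of 0.210 and 0.220. For HMGA1 the siRNAs differed by -0.10 (interval -0.43 to 0.23), and its difference from control was -2.03 and -2.15 with siRNA 28 and 30 in H460, -0.86 and -0.60 in H2023 and -0.51 and -0.35 in A549. HMGB1 differed from control in H460 by -1.30 and -1.34 with siRNA 28 and 30. Thus HMGA1 and HMGB1 in H460 had similar values with both siRNAs, whereas HMGB2 differed from control there by -1.40 with siRNA 28 and -0.54 with siRNA 30.

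Between the control libraries of H2023 and H460, which share medium and library type, HMGN5, HMGN4 and HMGB1 were lower in H2023, 3 of 9 members tested, where 24.6% of all genes were lower and 24.2% higher. HMGN5 stood at 12.1 and 9.50 FPKM in H2023 and at 63.4 and 51.7 FPKM in H460, a log2 difference of -2.31 (interval -2.76 to -1.86, adjusted p = 0.00043). HMGN4 differed by -1.31 (interval -1.70 to -0.91, adjusted p = 0.00184) and HMGB1 by -0.54 (interval -0.88 to -0.20, adjusted p = 0.0207). Without either H2023 control library, or without control library 1 of H460, the adjusted p of HMGB1 was between 0.0553 and 0.117, and it was 0.0553 with no filter on low values. HMGA1, highest of the members in both lines, differed by -0.03 (interval -0.42 to 0.36). These tests share the control libraries with the comparisons of NRF2 siRNA above.

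Over the 12 libraries, after the mean of each line was taken off, the members whose log2(FPKM + 1) ran most alike were HMGA1 and HMGB1 (Pearson r = 0.953). HMGB2 and HMGN1 had r = 0.864 and HMGB2 and HMGN2 r = 0.839. Among other genes, HMGA1 was most like BRIX1 and PFDN2 (both r = 0.989), ANP32B (r = 0.986), SRPK1 (r = 0.984), which the study also took from these libraries as a candidate, and PDCD5 (r = 0.983). HMGB2 was most like NEK2 (r = 0.978), CEP57L1 (r = 0.971), FAM53B (r = 0.970), CDK1 (r = 0.968) and CEP55 (r = 0.965), of which NEK2, CDK1 and CEP55 act in mitosis. HMGA2 was most like SUPT20H (r = 0.874), NFYB (r = 0.868), KLHL17 (r = 0.861), UBR2 (r = 0.855) and ZNF213 (r = 0.842). These are descriptions, since the points share the siRNA contrast and the scaling of each library, and the genes were picked as the highest of 11570 or more.

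Related genes were then followed. The H460 counts of the lists stand beside 6.86% of all genes called lower there and 7.12% called higher. Of 15 other HMG-box genes tested in A549 and in H2023 none passed the threshold, while in H460 2 of 13 fell and 1 rose. SSRP1, the HMG-box subunit of the histone chaperone FACT, was at 155 and 131 FPKM in the H460 control libraries and at 66.3 and 58.2 FPKM with siRNA 28 and 30 (log2 fold change -1.19, adjusted p = 0.0261). TFAM, which packages mitochondrial DNA, was at 42.5 and 49.7 FPKM against 22.7 and 11.4 FPKM (-1.45, adjusted p = 0.0413). CIC, a transcriptional repressor with an HMG box, rose from 16.4 and 16.2 FPKM to 32 and 36.4 FPKM (1.02, adjusted p = 0.0347). HMGXB4 and HMG20B had log2 differences of -0.79 and 0.44 that did not pass.

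Linker histones, which HMGN proteins oppose on nucleosomes, were tested for 4 genes in A549 and 2 in each of the other lines, and the call among them was H1-2 in H460. H1-2 rose there from 5.69 and 6.90 FPKM to 27.1 and 52.1 FPKM (log2 fold change 2.41, adjusted p = 0.0188). H1-10 had a log2 difference of 0.45 in H460 that did not pass. Most histone mRNAs lack a polyA tail, and the H460 and H2023 libraries were made from polyA RNA.

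Of a list that joined the receptors and a chemokine partner of HMGB1 to the SET complex, 1 of 6 genes tested fell in H460 and none of 5 in A549 or 6 in H2023 passed. The receptor AGER, the only one of the receptors tested in H460, had a log2 difference of 0.29 there that did not pass. TLR2, TLR4, TLR9, HAVCR2, CXCR4 and CXCL12 were under the level for testing in every line. The call was SET, an inhibitor of histone acetylation that forms a complex with HMGB2, at 547 and 453 FPKM in the H460 control libraries and 240 and 219 FPKM with NRF2 siRNA (log2 fold change -1.12, adjusted p = 0.0329). APEX1 and NME1, which also belong to the SET complex, had log2 differences of -0.72 and -0.68 with adjusted p of 0.0937 and 0.101.

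Of the genes known to regulate HMGA genes or to be regulated by HMGA proteins, 3 of 8 tested fell in H460 and none of 10 in A549 or 9 in H2023 passed. MYC, a transcription factor known to act on HMGA1, was at 495 and 299 FPKM in the H460 control libraries and at 35.2 and 70.1 FPKM with siRNA 28 and 30 (log2 fold change -2.93, adjusted p = 0.0168). HIPK2, a kinase, fell by 2.16 on the log2 scale (adjusted p = 0.0164), and CCNA2, the cyclin A gene, fell by 1.30 (adjusted p = 0.0347). LIN28A and MYCN were under the level for testing in every line. SP1 and E2F1 had log2 differences of 0.28 and -0.76 in H460 that did not pass.

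Of 14 enzymes known to modify high mobility group proteins, 3 fell in H460 and none passed among 12 tested in A549 and 14 in H2023. PRMT1, an arginine methyltransferase, was at 330 and 276 FPKM in the H460 control libraries and at 116 FPKM with either siRNA (log2 fold change -1.37, adjusted p = 0.0212). CSNK2A2, a catalytic subunit of casein kinase 2, fell by 0.94 (adjusted p = 0.0491) and PARP1, the poly(ADP-ribose) polymerase, by 0.93 (adjusted p = 0.0447) on the log2 scale. PRMT6, the enzyme known to methylate HMGA1, and the acetyltransferase EP300 had log2 differences of -0.75 and 0.31 that did not pass.

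Of 20 proliferation genes 13 fell in H460, where all 20 had a log2 difference under 0, and none passed in A549 or in H2023. The difference between the lines was not tested for this list. Their median log2 difference was -1.45 in H460, -0.36 in H2023 and -0.21 in A549. The greatest called falls in H460 were CCNB2 (-2.04), MCM2 (-2.03), MCM3 (-1.64) and PLK1 (-1.63), with adjusted p of 0.0197, 0.0299, 0.0263 and 0.0153, while RRM1 (-2.34, adjusted p = 0.0774) and MKI67 (-1.27, adjusted p = 0.0626) did not pass. The part of proliferation in the values of the high mobility group genes was not tested. The 12 canonical NRF2 targets fell in full in A549 and in H460, and 9 of them in H2023, with medians of -2.65, -2.83 and -3.02. Their part in the values of the high mobility group genes was not tested. Within a line 1 of the epithelial markers, CDH1 in H2023, rose (log2 fold change 2.497, adjusted p = 0.0280), and of the other cell type markers 1, COL1A1 in H460, from 1.81 and 2.06 FPKM to 5.94 and 5.81 FPKM (1.23, adjusted p = 0.0329).

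**Figure D4:**
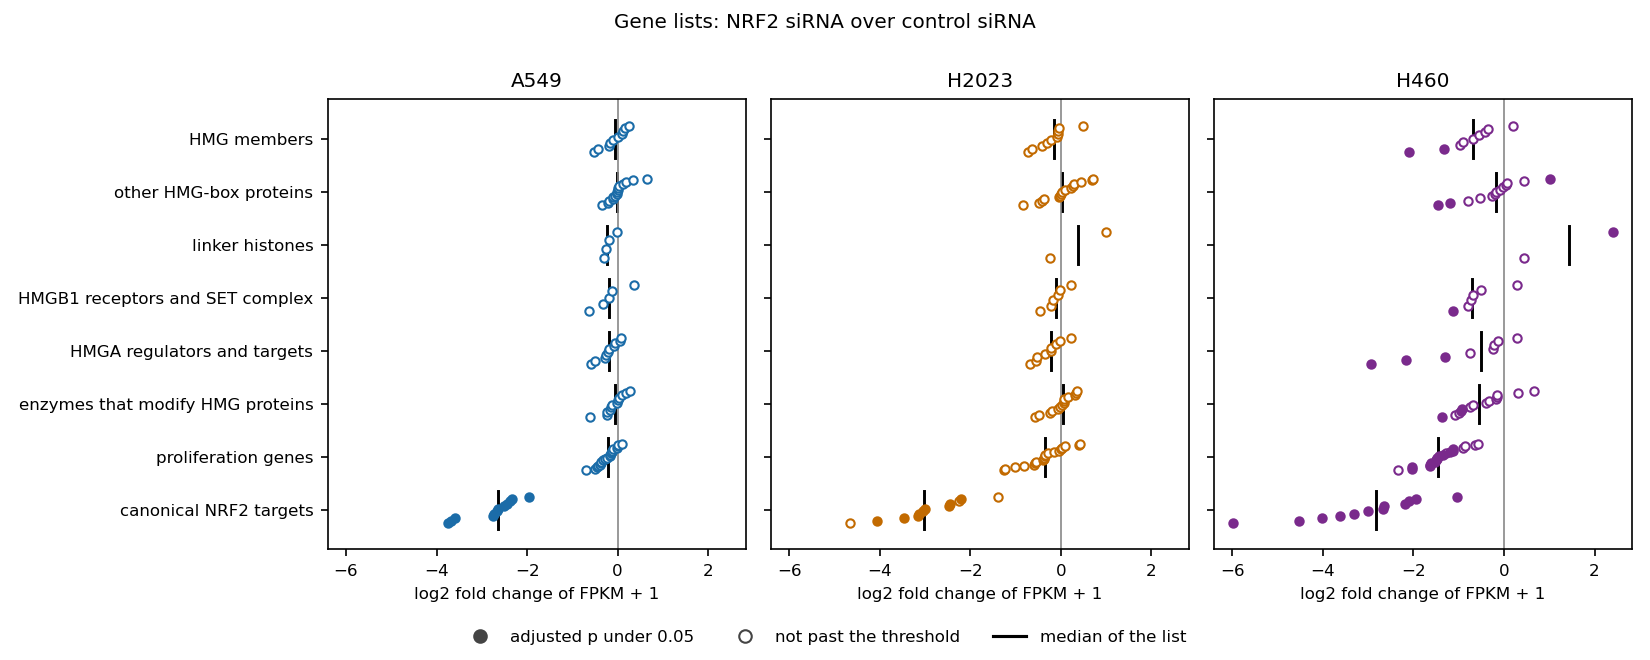
Log2 fold change of FPKM + 1, NRF2 siRNA over control siRNA, for each tested gene of 8 lists in A549, H2023 and H460, with filled circles for an adjusted p under 0.05 and black lines for the median of a list. The high mobility group genes have a median of -0.68 in H460 beside -1.45 for proliferation genes, while only the canonical NRF2 targets have filled circles in A549 and H2023.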

How the data were processed

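FPKM values, as deposited by the authors in 1 file per library, relate fragments to the length of the transcript and the size of the library. The study's methods name TopHat on hg19 and Cufflinks, whereas the submitters' processing notes list bcl2fastq 2.15.0, cutadapt 1.15, STAR 2.5.3a, SAMtools, Cuffnorm, HTSeq, DESeq2 and R 3.2.0, so the aligner behind these values is not certain. The authors' deposited DESeq2 tables hold their own comparisons (fold changes and p-values) and were not used. Counts per library were not analysed here.

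Identifiers were matched to symbols without their version (96.1% of 57815), and 12710 values under 1e-06 were set to 0. Genes at 1 FPKM or more in 2 libraries of a fit (for fits over lines, in 2 libraries of every line) were tested on log2(FPKM + 1), which understates changes of low genes, with limma 3.58.1 under R 4.3.3, a prior variance following expression, Benjamini-Hochberg adjustment over all genes tested and a threshold of 0.05. Each line was fitted on its 4 libraries, the average and the difference on all 12, siRNA 28 against 30 on 6 and the control libraries of H2023 and H460 on 4. Relative depth came from the value of 1 fragment in genes under 0.3 FPKM, and the number of libraries and not counting error set the precision given. The code was tested on simulated data. Sequences came from RefSeq and GENCODE on GRCh37, with Python 3.11.15, pandas 2.3.3, Biopython 1.88 and matplotlib 3.10.9.

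The members, the 10 gene lists and the tests were chosen with earlier results of these data known. A gene of these lists is not reported here and was left out of their counts. Named were the members, the most abundant pseudogenes, from each list up to 4 genes past the threshold and up to 2 that were not, the 5 genes most like HMGA1, HMGA2 and HMGB2, and NFE2L2. Alternatives covered the pseudocount, the filter, the trend, 2 other scalings, pseudogenes added to the parent, the replicate block, 1 common fit and leaving out each library. Fits of effects over the lines also had a weight per cell line. The average was also fitted without the H460 libraries and without the A549 libraries.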

Additional observations from a re-analysis of the deposited data

Results flagged for a closer look

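The effect of NRF2 siRNA on HMGA1 differed between the cell lines by a test of the difference itself (limma, adjusted p = 0.0214). It was lower in H460 than in A549 by -1.66 on the log2 scale and lower in H460 than in H2023 by -1.36, and in each line both NRF2 siRNA libraries lay below both control libraries. The first of these did not pass without any 1 of the A549 libraries or without control library 0 of H460, where it was between -1.76 and -1.55. The second did not pass without either H2023 control library, the H2023 library of siRNA 30 or control library 0 of H460, where it was between -1.41 and -1.22, nor with a weight per cell line (adjusted p = 0.0543). The fits without 1 A549 library called between 0 and 15 genes in all between H460 and A549.

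The effect on HMGB1 was lower in H460 than in A549 by -1.16 on the log2 scale, with an adjusted p of 0.0467, while its difference over all 3 lines did not pass (adjusted p = 0.0580). It passed in 7 of 21 alternatives, with adjusted p from 0.0259 to 0.183. It did not pass with no filter on low values (adjusted p = 0.0785), no trend of the prior variance (0.0572), mitochondrial transcripts left out (0.0998), rescaling by the median ratio (0.0536) or, as given below, the replicate block. A549 libraries were made after removal of ribosomal RNA and H460 libraries from polyA RNA, and line and library type cannot be told apart in this pair. Against H2023, also made from polyA RNA, the effect on HMGB1 was lower in H460 by -1.10, which did not pass (adjusted p = 0.0516).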

How the results depend on the processing

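The number of members called lower in H460 was 2, and it was 0 with no filter on low values, where no gene passed in any line, and 4 in 1 fit of all 12 libraries, where 2256 genes were lower in all instead of 922. In H2023 it was 0, and 1, HMGA1, in the common fit, where 305 genes were lower in all instead of 82. The average over the lines had 3 members lower, and 1 without the H460 libraries, where 418 genes were lower in all instead of 1674. The call of HMGB3 was also lost without the A549 libraries, without control library 0 of A549 and with no filter. Between siRNA 28 and 30 the common fit called 2 members lower, and 349 genes lower in all. Between the control libraries of H2023 and H460 it called 0 members higher in the fit given, 1 with mitochondrial transcripts left out and 3 with rescaling by the median ratio. Leaving out 1 library at a time gave 0 to 3 members lower in H2023 (0 to 801 genes in all), 0 to 4 lower in H460 (0 to 1748 genes in all), 2 to 4 lower on average (1029 to 1938 genes in all), 0 to 2 differing between the lines (3 to 770 genes in all) and 0 to 1 higher in H2023 than in H460.

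The labels do not say that a library number marks a shared culture or day, so the numbers were not taken to pair the libraries. The deviations of same-numbered libraries from their group means had correlations of 0.058 (A549), 0.293 (H2023) and 0.139 (H460). With the replicate number as a block, 1 member, HMGA1 (adjusted p = 0.0389), was called lower in H2023 and 4 in H460, where 298 and 1530 genes were called lower in all instead of 82 and 922, and the HMGB1 difference between H460 and A549 had an adjusted p of 0.0583.

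Of the values of single members, 14 changed sign under a setting that left out no single library, and none of these had passed the threshold. With mitochondrial transcripts left out they were HMGN1 at 0.0213, HMGN3 at 0.0048 and HMGN4 at 0.0317 in H2023, HMGN5 at 0.0705 on average, HMGA1 at 0.0384 and HMGN3 at 0.0313 between H2023 and H460, and HMGB1 at 0.0297 between the effects in H2023 and A549. With the median ratio they were HMGN1 at -0.0199 in A549, HMGN5 at 0.0097 on average, and HMGA1 at 0.0749 and HMGN3 at 0.0674 between H2023 and H460. HMGN1 in A549 was at -0.0268 with pseudogenes added, and HMGN5 on average at 0.0124 with a pseudocount of 0.1 and at 0.295 without the H460 libraries. Leaving out 1 library turned the sign of 27 values, none of them past the threshold. In A549 these ran from -0.42 to 0.22 for HMGA2, -0.0664 to 0.25 for HMGB2, -0.15 to 0.15 for HMGN1, -0.0276 to 0.35 for HMGN2, -0.66 to 0.26 for HMGN4 and -0.25 to 0.46 for HMGN5. In H2023 they ran from -0.52 to 0.33 for HMGA2, -0.50 to 0.0542 for HMGB1, -0.91 to 0.0782 for HMGB2, -0.44 to 0.30 for HMGN1 and -0.13 to 0.0324 for HMGN4. In H460 they ran from -0.75 to 0.0613 for HMGN2 and -0.14 to 0.53 for HMGN3, and on average from -0.15 to 0.0878 for HMGN5. Between H2023 and H460 they ran from -0.14 to 0.0769 for HMGA1 and -0.0778 to 0.0022 for HMGN3, for HMGB1 from -0.34 to 0.22 between the effects in H2023 and A549 and from -0.27 to 0.0236 between siRNA 28 and 30. Where a library was left out, the lone library of its group was assumed to vary like the others. The cause of these changes was not tested. With 2 libraries a group, the intervals given limit what could be called, and depth in fragments is unknown.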
